A study of Mus musculus with 2 samples.

Results

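The genes examined here encode the general mRNA decay machinery, the proteins that shorten, decap and degrade messenger RNAs in every cell. They were taken by symbol: the Cnot, Exosc, Dcp, Edc, Upf, Smg, Lsm, Tnrc6 and Dis3 gene families, *Xrn1* and *Xrn2*, *Pan2* and *Pan3*, *Ago1* to *Ago4*, *Parn*, *Pnpt1*, and 4 RNA-binding proteins, *Hnrnpd*, *Tia1*, *Tial1* and *Elavl1*. This gave 70 of the 19829 genes with a value. The data are bulk mRNA sequencing of whole kidneys, 1 library from wild-type mice (WT+AKI) and 1 from transgenic mice that overexpress *Inmt*, an indole-methylating enzyme, in proximal tubules (TG+AKI). Whether a library holds 1 animal or a pool is not given in the sources used here. Per the methods of the study, both groups were male mice on the C57BL/6 background given high-dose voclosporin, a calcineurin inhibitor, for 2 weeks from 8 weeks of age (30 mg/kg/day), and both underwent 30 min of bilateral renal ischemia followed by reperfusion at 14 weeks. The sample labels state that no treatment was given, although the series design names voclosporin, and harvest was at either 24 h or 48 h of reperfusion, both times being given. The title of the TG+AKI sample also calls the animals a conditional knockout, and the promoter that drives the transgene was not given in the sources used here.

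An mRNA is usually degraded in steps. The poly(A) tail is shortened by PAN2-PAN3 and by the CCR4-NOT complex, after which the transcript is either decapped and digested from its 5′ end by XRN1, with help from a ring of Lsm proteins, or digested from its 3′ end by the RNA exosome. Nonsense-mediated decay (NMD) feeds transcripts with premature stop codons into the same enzymes, Argonaute and TNRC6 proteins do so for microRNA targets, and proteins that bind AU-rich or U-rich elements mark inflammatory and growth-related mRNAs for decay or protect them from it.

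Values are the deposited normalized values, that is, reads per gene scaled by library. There were 38542764 reads for WT+AKI and 36427421 for TG+AKI. The decay genes took 0.268% and 0.226% of them, with 183 to 5118 reads per gene in WT+AKI and 148 to 4533 in TG+AKI. Differences are given as the ratio of TG+AKI to WT+AKI, with a 95% Clopper-Pearson interval in brackets. Reads amplified by PCR and carrying no molecular identifier are not independent molecules, and the intervals cover counting error only. With 1 library per group there is no replicate check, no difference between the groups could be tested, and an interval that lies off 1 tells 2 libraries apart and not 2 genotypes. *Inmt* itself stood at 10.4 in the WT+AKI kidney and at 402.8 in the TG+AKI kidney, which follows the label. The libraries differed widely in other transcripts. Of 10 kidney markers, 9 were higher in TG+AKI by more than counting error, and their values summed to 4089 for WT+AKI and to 13191 for TG+AKI. The summed value of 5 injured-tubule markers was 1885 and 17.9, that of 12 leukocyte markers 152.5 and 67.2, that of 5 fibroblast and mural cell markers 431.8 and 188.1, that of 5 endothelial markers 259.3 and 284.6, and that of 5 markers of dividing cells 17.7 and 5.89. No marker was at 0 in either library, but the T and B cell markers *Cd3e*, *Cd3g* and *Ms4a1* had values under 1 in both. In whole-kidney RNA, fewer cells of a type and less RNA per cell cannot be told apart. The part of these cell-type differences in the results that follow was not tested.

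Against this background the decay genes differed little. A gene was compared if it reached 10 in 1 library or both. Of the 70 genes, 61 reached 10 in both libraries and were compared. The other 9 were under 10 in both (*Ago4*, *Dcp1b*, *Exosc6*, *Exosc8*, *Lsm2*, *Lsm5*, *Lsm7*, *Lsm10* and *Lsm11*). The 10294 genes compared also include genes that reached 10 in 1 library only, with values down to 0.189 in WT+AKI and 0.0302 in TG+AKI. The part of such genes in the shares and the SD of all genes was not tested. Only 1 of the 61 was at least 1.5-fold higher in TG+AKI (*Dis3l2*), where 14.4% of the 10294 genes compared were, and 3 were at least 1.5-fold lower (*Exosc9*, *Lsm6* and *Lsm8*), where 14.9% were. At 2-fold no decay gene was higher or lower, against 6.11% and 7.67% of all genes. Ratios lay within 1.5-fold for 57 of the 61 genes (93.4%) and within 1.25-fold for 45 (73.8%), compared with 70.7% and 48% of all genes. The SD of the log2 ratio was 0.30 over the decay genes and 0.88 over all genes. The median ratio was 1.01 both for the decay genes and for all genes. Of the 61 intervals, 17 lay above 1 (27.9%), 17 below 1 (27.9%) and 27 included it (44.3%), where 41.8%, 39.5% and 18.7% of the intervals of all genes compared did; an interval is narrower the more reads a gene has. The limit of 1.5-fold fell between *Dis3l2* at 1.91 and *Dis3l* at 1.49 on the higher side, and between *Lsm8* at 0.652 and *Xrn2* at 0.741 on the lower side.

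**Figure D1:**
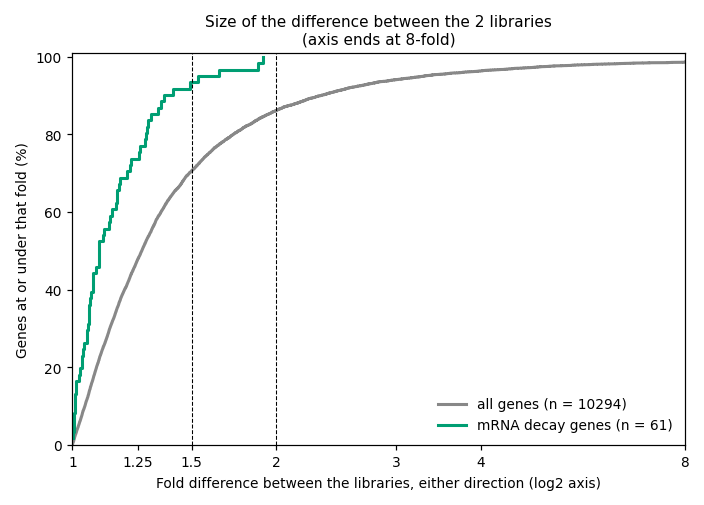
Share of genes (y axis, %) whose values in the 2 libraries lay within a given fold of each other in either direction (x axis, log2 scale), for the 61 decay genes and for the 10294 genes compared. At 1.5-fold (first dashed line) the curves stand at 93.4% and 70.7%, and every decay gene lies within 2-fold (second dashed line).

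These directions depend in part on how the libraries are scaled to each other. Scaling to the same total lowered the log2 ratio of every gene by 0.27, and 52 of the 61 decay genes were then below 1, with 1 at least 1.5-fold higher and 7 lower (1 of them, *Exosc9*, at least 2-fold), against 854 higher and 2688 lower of all genes. With the median ratio of well-expressed genes set to 1 the shift was 0.14, and 46 decay genes were below 1, with 1 higher and 3 lower, against 1106 and 2006 of all genes. The median log2 ratio of the decay genes differed from that of all genes by -0.0062 under each of these scalings. Ratios near 1 are therefore best read against other genes of the same libraries, and ratios between 2 decay genes within each library, which no scaling can alter, are given where they help.

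**Figure D2:**
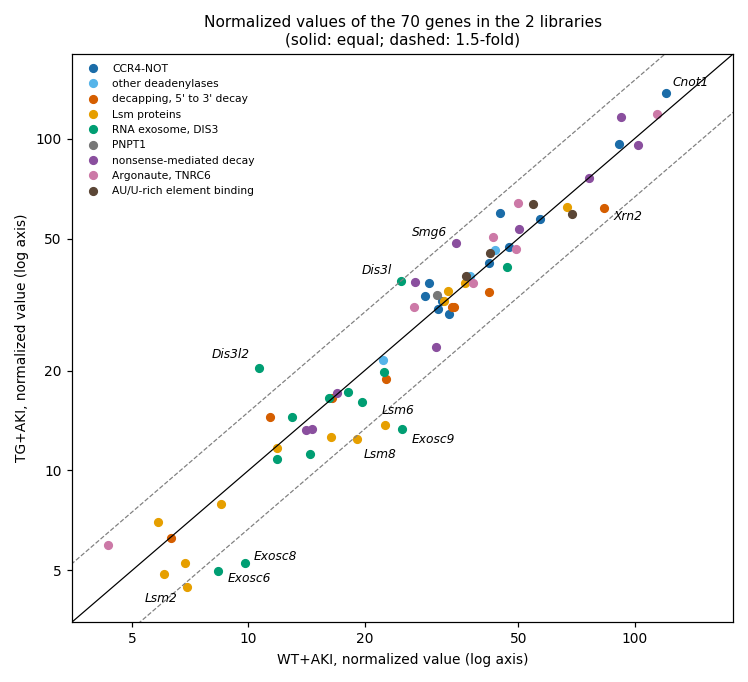
Normalized value of each of the 70 decay genes in WT+AKI (x axis) and TG+AKI (y axis), both on log scales, 1 point per gene, coloured by role. The points follow the line of equal values, with *Dis3l2* above the upper 1.5-fold line and *Exosc9*, *Exosc8*, *Exosc6*, *Lsm6*, *Lsm8* and *Lsm2* below the lower one.

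The deadenylases, which start decay by removing the poly(A) tail, were the most even group. None of the 11 CCR4-NOT genes reached 1.5-fold and their median ratio was 1.02, a value that fell below 1 (0.847 and 0.927) when the libraries were scaled to the same total or to a median ratio of 1. *Cnot1*, the scaffold of the complex, had values of 120.7 (WT+AKI) and 136.9 (TG+AKI) (ratio 1.13 [1.09 to 1.18]). The catalytic subunits of the CAF1 type, *Cnot7* and *Cnot8*, were nearly equal between the libraries, with values of 57.0 and 57.3 for *Cnot7* (ratio 1.01 [0.946 to 1.07]) and of 31.6 and 32.4 for *Cnot8* (ratio 1.02 [0.944 to 1.11]). Of the catalytic subunits of the CCR4 type, *Cnot6* had values of 90.9 and 96.0 and *Cnot6l* had values of 44.8 and 59.8. *Cnot6l* had the highest ratio of the complex (1.34 [1.25 to 1.42]), above that of *Cnot6* (1.06 [1.01 to 1.11]). *Cnot11*, part of the module at the N-terminal end of CNOT1, had values of 29.3 and 36.7 (ratio 1.25 [1.16 to 1.36]), whereas its partner *Cnot10* had values of 42.0 and 42.3. *Cnot3*, a subunit of the NOT module, was the lowest, with values of 33 and 29.7 (ratio 0.900 [0.829 to 0.978]). Its neighbour in that module, *Cnot2*, had the highest level of the complex per kilobase of transcript in WT+AKI (16.0, and 15.9 in TG+AKI). The other deadenylases had ratios of 1.03 for *Pan2*, the catalytic subunit of PAN2-PAN3, 1.06 for its adaptor *Pan3* and 0.966 for *Parn*, and all 3 intervals included 1.

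**Figure D3:**
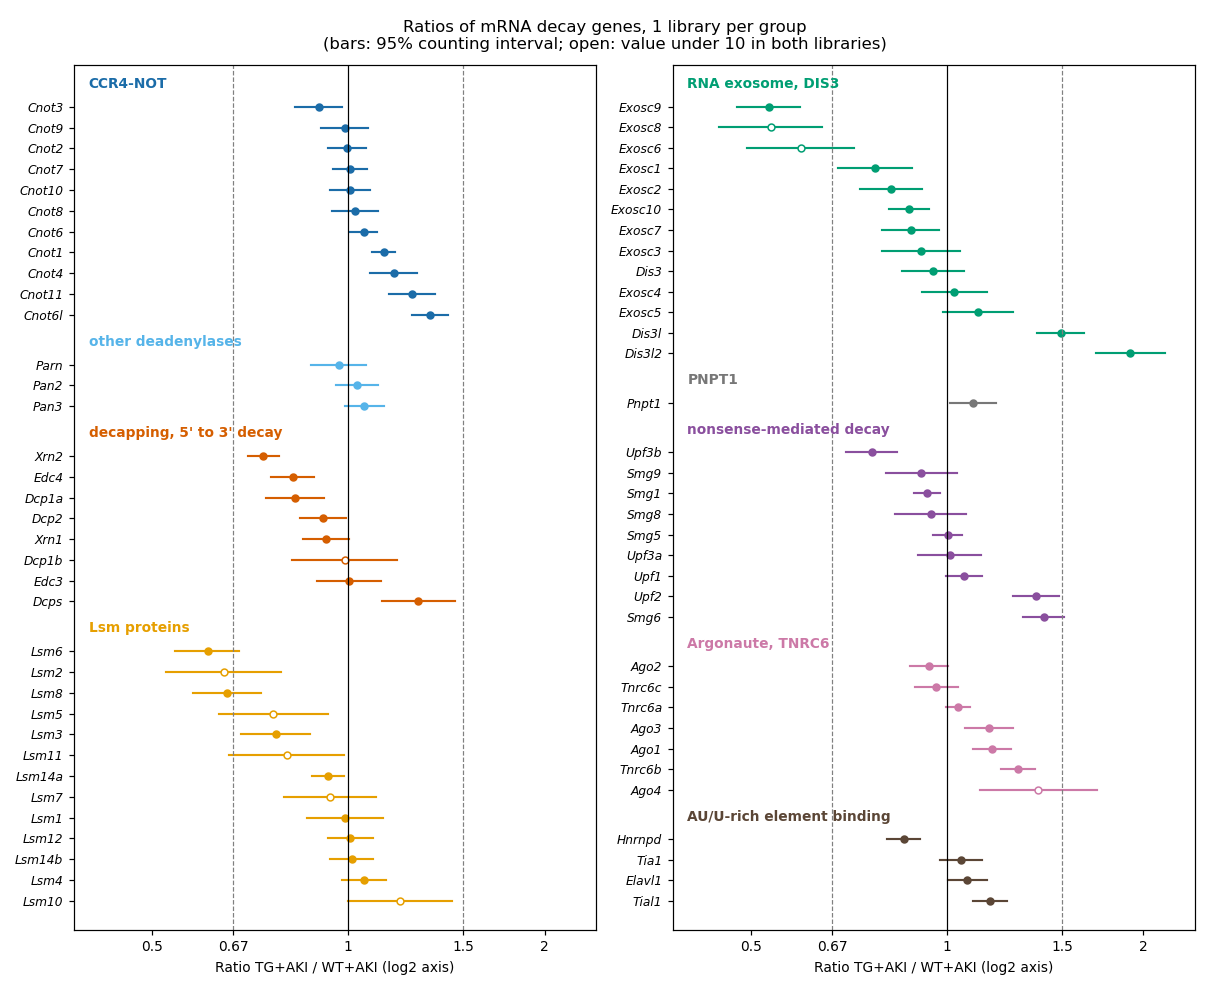
Ratio of TG+AKI to WT+AKI for the decay genes reported singly (x axis, log2 scale), grouped by role and ordered by ratio. Bars are 95% counting intervals, open circles are the 9 genes under 10 in both libraries, the solid line is a ratio of 1 and the dashed lines mark 1.5-fold; *Dis3l2* at 1.91 and *Exosc9* at 0.533 are the extremes.

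Genes of decapping and of 5′ to 3′ decay lay slightly below 1, with a median ratio of 0.914 over the 7 of 8 genes compared. The other scalings multiply every ratio by 0.826, 0.905 or 1.01, so none of them could have brought this median above 1. None reached 1.5-fold. *Dcp2*, which cleaves the cap, had values of 34 (WT+AKI) and 31.1 (TG+AKI) (ratio 0.914 [0.843 to 0.991]). Its activator *Dcp1a* had values of 22.7 and 18.9 (ratio 0.830 [0.749 to 0.919]), and *Edc4*, the scaffold that joins the decapping enzyme to XRN1, had values of 41.9 and 34.5 (ratio 0.822 [0.762 to 0.885]). *Dcps*, which hydrolyses the cap left after 3′ to 5′ decay, was the exception, with values of 11.3 and 14.5 (ratio 1.28 [1.13 to 1.46]). The 5′ to 3′ exonucleases differed from each other. *Xrn1*, the cytoplasmic enzyme, had values of 33.8 and 31.2 (ratio 0.924 [0.852 to 1.0]). *Xrn2*, the nuclear enzyme that also acts in transcription termination, had values of 83.5 and 61.9 (ratio 0.741 [0.701 to 0.782]), the lowest of the class, although it had the highest level per kilobase of the class in both libraries (24.3 and 18.0). There were 0.404 *Xrn1* reads per *Xrn2* read in WT+AKI and 0.504 in TG+AKI (odds ratio 1.25 [1.13 to 1.38], a pair chosen after its values were seen).

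Among the 13 Lsm genes the small ring subunits stood out. Lsm1 to Lsm7 form the cytoplasmic ring that binds shortened poly(A) tails before decapping, and Lsm2 to Lsm8 form the nuclear ring that holds the U6 spliceosomal RNA. *Lsm6*, shared by both rings, stood at 22.5 in the WT+AKI kidney and at 13.7 in the TG+AKI kidney (955 and 454 reads), so it was 1.64-fold lower there (ratio 0.609 [0.543 to 0.681]). *Lsm8*, which makes the ring nuclear, had values of 19.1 and 12.5 and was 1.53-fold lower (ratio 0.652 [0.578 to 0.735]). With a pseudocount of 1 or a correction for GC content and length *Lsm8* was no longer past 1.5-fold (0.669 and 0.675), and with a pseudocount of 10 neither it (0.771) nor *Lsm6* (0.729) was. *Lsm1*, which makes it cytoplasmic, had values of 11.8 and 11.7 (ratio 0.989 [0.864 to 1.13]). There were 0.619 *Lsm1* reads per *Lsm8* read in WT+AKI and 0.939 in TG+AKI (odds ratio 1.52 [1.27 to 1.82], a pair chosen after its values were seen).

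The shared subunits were uneven. *Lsm2* had values of 6.93 and 4.47, under the limit of 10 in both libraries (ratio 0.644 [0.525 to 0.788]). *Lsm5* had a ratio of 0.768 [0.633 to 0.930] and *Lsm3* one of 0.774 [0.684 to 0.875]. The intervals of *Lsm4* (ratio 1.06) and *Lsm7* (ratio 0.938) included 1, and 11% of the 100-base words of *Lsm7* also occur in another gene, so that its value is uncertain. Of the 7 genes *Lsm2* to *Lsm8*, 5 thus had an interval below 1 and 0 an interval above it, against 39.5% and 41.8% of all genes compared. The 5 include *Lsm2* and *Lsm5*, and the 7 also *Lsm7*, all under 10 in both libraries. The shares are of genes that reached 10. *Lsm4* had the highest level per kilobase of any decay gene (35.6 and 37.6), and the number of its reads per *Lsm6* read went from 1.46 to 2.54 (odds ratio 1.74 [1.51 to 2.0], again a pair chosen after its values were seen). The Lsm proteins outside the rings were closer to 1, with a ratio of 1.01 for *Lsm12*, 0.931 [0.879 to 0.986] for the processing-body protein *Lsm14a* and 1.01 for *Lsm14b*. *Lsm10* and *Lsm11*, subunits of the U7 particle that processes histone mRNA, were both under 10, with ratios of 1.20 [1.0 to 1.44] and 0.805 [0.657 to 0.984]. Over the 8 Lsm genes compared the median ratio was 0.960.

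The RNA exosome and its nucleases held the highest and the lowest ratio of all decay genes. *Exosc9*, a subunit of the exosome ring, stood at 25 in the WT+AKI kidney and at 13.3 in the TG+AKI kidney (1060 and 441 reads), so it was 1.88-fold lower there (ratio 0.533 [0.476 to 0.596]). *Exosc8*, another ring subunit, had values of 9.79 and 5.25 (ratio 0.537 [0.447 to 0.642]), just under the limit of 10 in WT+AKI. *Exosc6* had values of 8.35 and 4.98 (ratio 0.597 [0.493 to 0.720]), but its gene lies wholly within an exon of *Aars* in the annotation, so its reads are uncertain, and *Aars* had values of 104.8 and 98.7. *Exosc7* had a ratio of 0.880 [0.795 to 0.973], and the intervals of *Exosc4* (ratio 1.03) and *Exosc5* (ratio 1.12) included 1.

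The RNA-binding cap of the exosome lay below 1 in part. *Exosc1* had values of 14.4 and 11.2 (ratio 0.776 [0.680 to 0.884]) and *Exosc2* of 19.6 and 16.1 (ratio 0.821 [0.735 to 0.916]), while the interval of *Exosc3* (ratio 0.913) included 1. *Exosc10*, a nuclear exonuclease bound to the core and the exosome gene of highest level per kilobase (16.6 and 14.5), had values of 46.8 and 40.9 (ratio 0.874 [0.815 to 0.937]). Of the 10 Exosc genes, 7 had an interval below 1, the uncertain *Exosc6* among them, and 0 an interval above it, against 39.5% and 41.8% of all genes compared. The 7 include *Exosc6* and *Exosc8*, which were under 10 in both libraries, whereas the shares are of genes that reached 10. The ratios of *Exosc4* and *Exosc5* fell below 1 with the libraries scaled to the same total. *Exosc9* overlaps *Ccna2* on the opposite strand over 10.8% of its exon bases, and *Ccna2* had values of only 3.40 and 2.45. *Exosc4* overlaps *Oplah* on the opposite strand over 19.8% of its exon bases, and *Oplah* had values of 259.3 and 190.4, so *Exosc4* is uncertain if strand was not used in counting.

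The cytoplasmic nucleases went the other way. *Dis3l2*, an exonuclease that works without the exosome and degrades RNAs tailed with uridines, stood at 10.6 in the WT+AKI kidney and at 20.3 in the TG+AKI kidney (451 and 672 reads). It was 1.91-fold higher in TG+AKI [1.69 to 2.15], and at least 1.5-fold higher under each scaling tried, but not with a pseudocount of 10 (1.47). *Dis3l*, the catalytic subunit of the cytoplasmic exosome, had values of 24.9 and 37.1 (ratio 1.49 [1.37 to 1.62]). *Dis3*, the catalytic subunit of the nuclear exosome, had values of 18.1 and 17.2 (ratio 0.951 [0.852 to 1.06]). There were 0.425 *Dis3l2* reads per *Exosc9* read in WT+AKI and 1.52 in TG+AKI, an odds ratio of 3.58 [3.03 to 4.23], and 0.995 and 2.79 *Dis3l* reads (odds ratio 2.80 [2.44 to 3.23]); both pairs were chosen after their values were seen. Over the 11 of 13 genes compared the median ratio was 0.913. *Pnpt1*, the polynucleotide phosphorylase of mitochondria and a relative of the exosome ring subunits, had values of 30.9 and 33.8 (ratio 1.10 [1.01 to 1.19]), which fell below 1 (0.905 and 0.991) when the libraries were scaled to the same total or to a median ratio of 1.

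The promoters are shown of 4 genes with ratios beyond 1.5-fold in one direction or the other. These 4 were not chosen by a rule, and *Exosc9*, *Exosc6* and *Lsm2*, which also had such ratios, are not shown. Each runs 5′ to 3′ on the strand of its gene, from 250 bases before to 50 bases after the start of transcription, and is taken from RefSeq on build GRCm38.p6. Capitals mark matches, on either strand, to any of 8 motifs searched: the TATA box (TATAAA), the CCAAT box (CCAAT), the GC box (GGGCGG), the E-box (CACGTG), an ETS motif (CCGGAAG), the core of the NRF1 motif (GCATGCG), the core of the YY1 motif (AAGATGG) and the AP-1 motif (TGANTCA). Matches of different motifs share no base in these 4 windows.
*Exosc8*, lower in TG+AKI, minus strand, chr3:54735315-54735614: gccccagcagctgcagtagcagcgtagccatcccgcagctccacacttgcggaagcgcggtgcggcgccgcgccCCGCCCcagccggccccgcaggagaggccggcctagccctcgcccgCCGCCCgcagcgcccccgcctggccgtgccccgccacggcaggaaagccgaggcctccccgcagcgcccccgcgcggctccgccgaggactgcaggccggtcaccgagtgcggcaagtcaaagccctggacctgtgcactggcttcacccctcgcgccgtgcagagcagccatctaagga
*Lsm6*, lower in TG+AKI, minus strand, chr8:78821103-78821402: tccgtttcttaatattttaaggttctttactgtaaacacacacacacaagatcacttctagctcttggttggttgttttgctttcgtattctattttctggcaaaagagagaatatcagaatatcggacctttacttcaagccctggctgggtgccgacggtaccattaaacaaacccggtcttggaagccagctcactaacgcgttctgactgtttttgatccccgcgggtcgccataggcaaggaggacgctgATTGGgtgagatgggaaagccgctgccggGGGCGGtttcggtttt
*Lsm8*, lower in TG+AKI, plus strand, chr6:18848385-18848684: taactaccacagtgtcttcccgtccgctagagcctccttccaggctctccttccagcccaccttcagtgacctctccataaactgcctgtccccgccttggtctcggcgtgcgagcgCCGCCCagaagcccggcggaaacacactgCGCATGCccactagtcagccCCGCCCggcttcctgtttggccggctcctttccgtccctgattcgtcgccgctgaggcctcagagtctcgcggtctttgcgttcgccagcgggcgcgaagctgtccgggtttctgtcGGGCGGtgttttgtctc
*Dis3l2*, higher in TG+AKI, plus strand, chr1:86703554-86703853: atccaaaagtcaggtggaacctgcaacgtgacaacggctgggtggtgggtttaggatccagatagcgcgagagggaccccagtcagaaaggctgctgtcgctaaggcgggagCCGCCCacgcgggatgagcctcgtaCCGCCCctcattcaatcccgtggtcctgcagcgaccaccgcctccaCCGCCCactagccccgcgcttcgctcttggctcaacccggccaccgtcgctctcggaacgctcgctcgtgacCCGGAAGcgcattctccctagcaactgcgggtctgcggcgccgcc

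A GC box was found in each of the 4 windows, a CCAAT box only in that of *Lsm6*, an NRF1 core only in that of *Lsm8* and an ETS motif only in that of *Dis3l2*. *Lsm6* had the lowest GC content of the 4 (47.7%) and *Exosc8* the highest (75.7%). Of the 70 decay genes, 60 matched a RefSeq promoter, with 73 windows in all. For each motif the share is given beside that of all 32851 windows and that of the 10514 windows of genes compared. A GC box was present in 52 of the 73 windows (71.2%, against 35.7% and 63.5%), an ETS motif in 16 (21.9%, against 8.86% and 17.8%) and an NRF1 core in 10 (13.7%, against 3.58% and 6.13%). A CCAAT box was present in 23 (31.5%, against 37.4% and 36.9%), an E-box in 5 (6.85%, against 7.15% and 10.2%) and a YY1 core in 7 (9.59%, against 6.34% and 7.23%). The AP-1 motif was present in 1 (1.37%, against 7.81% and 5.16%) and the TATA box in 0 (against 13.6% and 7.38%). The median GC content was 64% in the windows of decay genes and 52.7% in all windows. It was not computed for the windows of genes compared, so it is not shown to be particular to decay genes. A match of letters is a description and does not show that a factor binds there.

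On mm10 (GRCm38), *Exosc9* (gene ID 50911) lies at chr3:36552606-36565727, *Exosc8* (69639) at chr3:54728678-54735393, *Lsm6* (78651) at chr8:78804865-78821140, *Lsm8* (76522) at chr6:18848579-18855751 and *Dis3l2* (208718) at chr1:86703808-87050095, per GENCODE M21. *Exosc9* and *Exosc8* are thus on the same chromosome but far apart.

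The 10 genes of nonsense-mediated decay had a median ratio of 1.01, and none reached 1.5-fold; this median was 0.831 and 0.910 with the libraries scaled to the same total or to a median ratio of 1. *Upf1*, the helicase at the centre of the pathway, had values of 50.2 and 53.4, and its interval included 1. *Upf2*, which links UPF1 to the exon junction complex, had values of 27.0 (WT+AKI) and 37.0 (TG+AKI) (ratio 1.37 [1.26 to 1.48]). *Upf3b*, the next link in that chain, had values of 30.7 and 23.5 and was the lowest of the pathway (ratio 0.766 [0.700 to 0.838]), while its paralog *Upf3a* had values of 17 and 17.1 (ratio 1.01 [0.903 to 1.13]). The number of *Upf2* reads per *Upf3b* read was 0.882 in WT+AKI and 1.57 in TG+AKI (odds ratio 1.78 [1.58 to 2.02], a pair chosen after its values were seen).

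Factors that act on phosphorylated UPF1 were also uneven. *Smg6*, the endonuclease that cuts near the stop codon, had values of 34.4 and 48.4 and the highest ratio of the pathway (1.41 [1.31 to 1.51]). *Smg5*, an adaptor that recruits decay enzymes, had values of 76.2 and 76.3 (ratio 1.0 [0.95 to 1.06]). *Smg1*, the kinase that phosphorylates UPF1, had values of 102.3 and 95.4 (ratio 0.933 [0.891 to 0.977]). Its regulators *Smg8* and *Smg9* had ratios of 0.944 and 0.914, and both intervals included 1. Per kilobase, the highest level of the pathway in WT+AKI was that of *Smg5* (17.1).

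The Argonaute and TNRC6 proteins, through which microRNAs silence their targets, had a median ratio of 1.10 over 6 of 7 genes, although this median was 0.907 and 0.993 with the libraries scaled to the same total or to a median ratio of 1. Among the Argonautes, *Ago2*, the member that can slice its targets, had values of 49.4 and 46.4 (ratio 0.938 [0.877 to 1.0]). *Ago1* had values of 43.1 and 50.4 (ratio 1.17 [1.10 to 1.25]), *Ago3* of 26.9 and 31.1 (ratio 1.16 [1.06 to 1.26]) and *Ago4*, under 10 in both libraries, of 4.32 and 5.95 (ratio 1.38 [1.12 to 1.69]). *Ago2* was thus the one Argonaute with the lower deposited value in TG+AKI, although with the libraries scaled to the same total *Ago1* and *Ago3* were lower too (0.968 and 0.958). Of the TNRC6 scaffolds, which connect Argonautes to CCR4-NOT, *Tnrc6b* had values of 49.9 and 64.2 (ratio 1.29 [1.21 to 1.37]). *Tnrc6a*, with the highest level per kilobase of the class (14 and 14.5), had values of 114.2 and 118.6 (ratio 1.04 [0.996 to 1.08]) and *Tnrc6c* of 38.2 and 36.8 (ratio 0.963 [0.893 to 1.04]).

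All 4 proteins that bind AU-rich or U-rich elements were represented in both kidneys, by 1278 to 2922 reads per library. *Tial1*, a translational repressor and the paralog of *Tia1*, had values of 54.6 (WT+AKI) and 63.5 (TG+AKI) (ratio 1.16 [1.10 to 1.23]), the highest of the group. *Elavl1* (HuR), which stabilizes its targets, had values of 42.2 and 45.3 (ratio 1.07 [1.0 to 1.15]). *Hnrnpd* (AUF1), which promotes decay, had the lowest ratio, 0.858 [0.810 to 0.909], and *Tia1* one of 1.05 with an interval that included 1. With the libraries scaled to the same total, each of these 4 genes was below 1.

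Several decay factors exist as paralogs, not all with the same role, and the share of each within its family does not depend on the scaling between libraries. Shares were computed from reads per kilobase of the longest annotated transcript, so that a share depends on the transcript taken, whereas the odds ratio, computed from the reads of a gene against those of its family, does not. Of 9 families with 22 genes, 6 had at least 1 paralog whose odds ratio lay off 1 by more than counting error. The DIS3 family held the odds ratios farthest from 1. The share of *Dis3* was 28.4% in WT+AKI and 19.2% in TG+AKI (odds ratio 0.588 [0.516 to 0.67]), that of *Dis3l2* was 16.5% and 22.3% (odds ratio 1.51 [1.31 to 1.73]), and *Dis3l* kept the largest share, 55.1% and 58.5%.

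In the UPF3 pair, *Upf3a* made up 27.6% of the family in WT+AKI and 33.5% in TG+AKI (odds ratio 1.32 [1.14 to 1.52]). *Cnot6l* made up 24.8% and 29.4% of the CCR4-type deadenylases (odds ratio 1.26 [1.17 to 1.37]), and *Tnrc6b* 14.3% and 17.3% of the TNRC6 family (odds ratio 1.26 [1.17 to 1.35]). *Ago2* made up 30.04% and 25.4% of the Argonautes (odds ratio 0.796 [0.732 to 0.865]), against 49.98% and 52.7% for *Ago1*. Their order turned with the median transcript length, by which *Ago2* made up 54.01% and 48.5% and *Ago1* 17.5% and 19.6%, and *Ago2* also led by plain reads in WT+AKI (39.97%, *Ago1* 34.8%). *Cnot6l* made up 43.5% and 49.3% of its pair by the median transcript length, and *Tnrc6b* 21.5% and 25.4% of its family. *Tial1* held 59.9% and 62.3% of its pair with *Tia1* (odds ratio 1.11 [1.0 to 1.22]). The other three families, *Cnot7* with *Cnot8*, *Dcp1a* with *Dcp1b*, and *Lsm14a* with *Lsm14b*, had odds ratios whose intervals included 1; that of *Cnot7* was 0.981 [0.887 to 1.09], so a shift in this pair by more than these bounds was not seen at this depth.

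**Figure D4:**
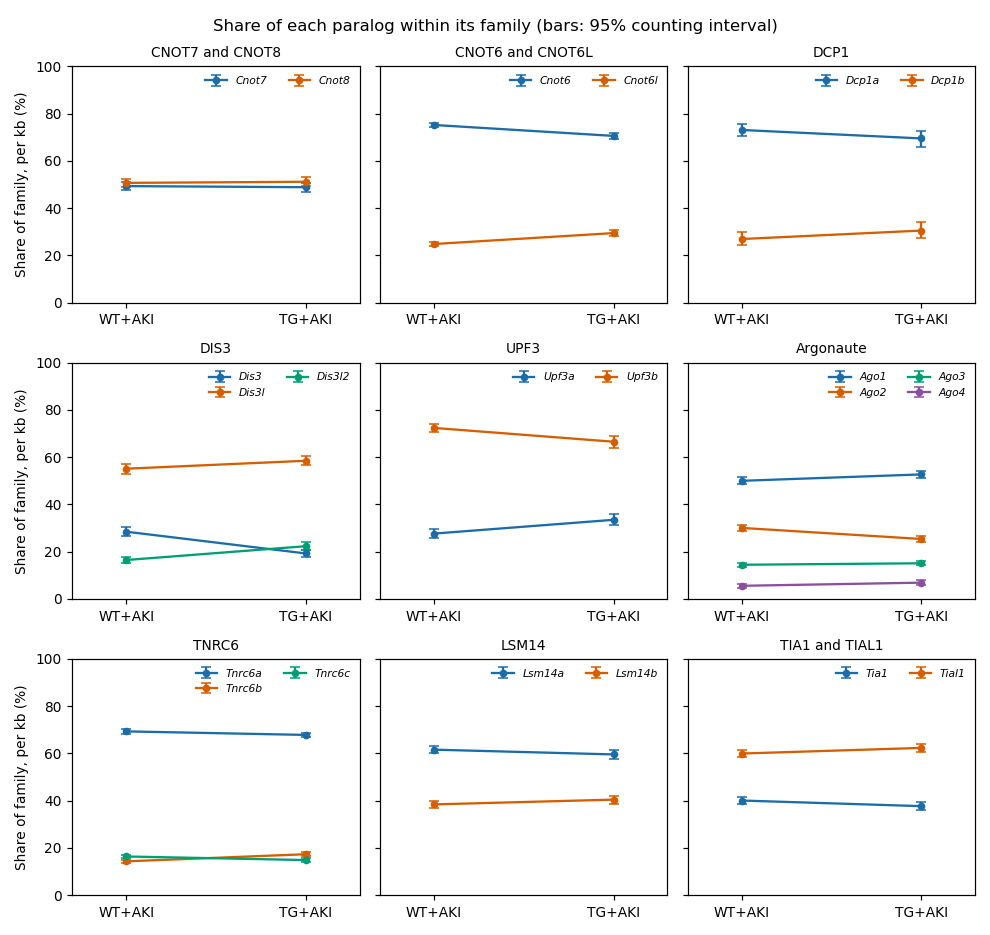
Share of each paralog within its family (y axis, % of reads per kilobase) in the WT+AKI and TG+AKI libraries for 9 families; bars are 95% counting intervals. *Dis3* goes from 28.4% to 19.2% and *Dis3l2* from 16.5% to 22.3%, so that their order is exchanged, while *Cnot7* and *Cnot8* stay level.

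Across roles, the order of levels was nearly the same in both kidneys. The log2 values of the 61 genes correlated between the libraries with a Pearson r of 0.948 and a Spearman rho of 0.941, a description across genes that share the same 2 libraries. Levels per kilobase ran from 0.660 to 35.6 in WT+AKI and from 0.753 to 37.6 in TG+AKI over the 70 genes, with medians of 7.46 and 7.31, somewhat below the medians of all genes compared (10.8 and 10.5). By role, the median level per kilobase was highest for the CCR4-NOT genes in both libraries (9.47 and 10.5) and lowest for the Argonaute and TNRC6 genes (3.29 and 3.36).

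A further list of 63 genes that act in mRNA decay was examined beside these, made up of cofactors, adaptors, poly(A)-binding proteins, uridylyltransferases and microRNA-processing enzymes. Of them 60 had a value and 55 were compared. None was at least 1.5-fold higher in TG+AKI (14.4% of all genes), 7 were at least 1.5-fold lower (14.9% of all genes) and 3 of these at least 2-fold lower (7.67%). The 3 lowest were *Btg2*, *Btg1* and *Noct*. *Btg2*, an antiproliferative protein that brings CCR4-NOT to mRNA, stood at 273.7 in the WT+AKI kidney and at 34.1 in the TG+AKI kidney, 8.02-fold lower. *Btg1*, of the same family, had values of 108.9 and 38.7 (ratio 0.356 [0.334 to 0.379]), and *Noct*, a circadian relative of the CCR4-type deadenylases, of 35.3 and 12.7 (ratio 0.358 [0.321 to 0.40]). The remaining 4 were *Pabpc1*, the main cytoplasmic poly(A)-binding protein (431.5 and 251.2, ratio 0.582), *Btg3* (ratio 0.559), the exosome cofactor *Mphosph6* (ratio 0.563) and the uridylyltransferase *Tut4* (ratio 0.623), named after their values were seen.

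Among the 55 compared, the highest ratios were those of *Ncbp1*, a subunit of the nuclear cap-binding complex (38.3 and 50.9, ratio 1.33 [1.24 to 1.42]), and of a pair of helicases that feed RNA to the exosome, *Mtrex* in the nucleus (60.1 and 77.1, ratio 1.28 [1.21 to 1.36]) and *Skiv2l* in the cytoplasm (56.5 and 72.2, ratio 1.28 [1.21 to 1.35]). The median ratio of the list was 0.997.

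For comparison, 3 other lists from RNA metabolism were measured in the same way. The first held the spliceosomal Sm genes, relatives of the Lsm genes, and *Snrpb2* (ratio 0.739), a spliceosomal gene that is not an Sm gene. Of its 8 genes compared, 2 were at least 1.5-fold lower (14.9% of all genes) and the median ratio was 0.806. Of 26 ribosome biogenesis factors, a process in which the exosome also takes part, 10 were at least 1.5-fold lower (14.9% of all genes). Of the same factors, 24 had an interval below 1 (39.5% of all genes), and the median ratio was 0.728. Of 8 transcripts known as targets of NMD that were compared, 6 were at least 1.5-fold lower (14.9% of all genes), and the median ratio was 0.563. They were *Gas5* (0.591), *Snhg1* (0.424), *Snhg6* (0.646) and *Snhg8* (0.920), and 4 stress-response genes. The latter were *Gadd45a* (0.489), *Gadd45b* (0.212), *Atf4* (0.728) and *Ddit3* (0.536). The part of the difference in injury between the libraries in these values was not tested. Of the 11 such transcripts with a value, 10 were lower. The other, *Snhg12*, under 10 in both libraries, was higher (ratio 1.29 [1.10 to 1.51]). RNA levels alone do not tell a difference in NMD from one in transcription, and neither was tested. None of these lists had a compared gene at least 1.5-fold higher (14.4% of all genes). The markers of dividing cells given above were lower in the same library, and their part in these values was not tested.

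**Figure D5:**
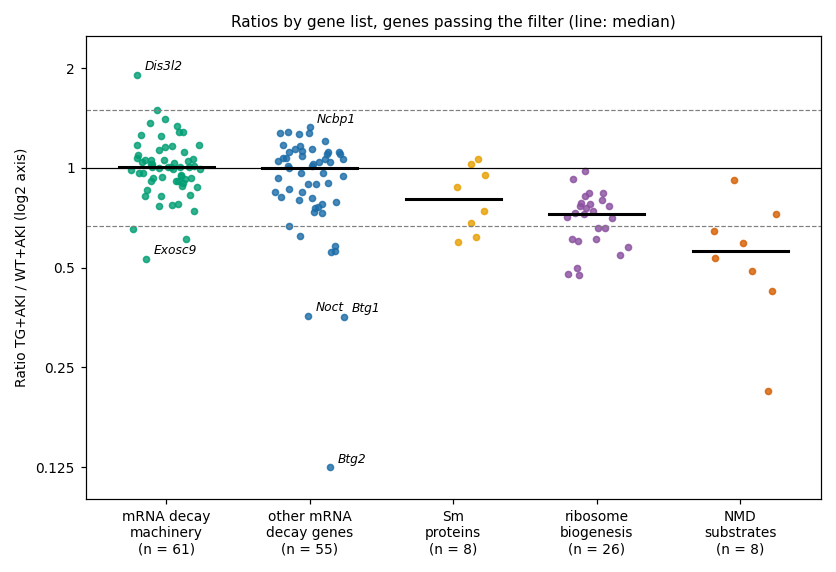
Ratio of TG+AKI to WT+AKI (y axis, log2 scale) of the genes passing the filter in each of 5 lists, 1 point per gene, with the median as a black line; dashed lines mark 1.5-fold. Medians are 1.01 for the decay machinery, 0.997 for other mRNA decay genes and 0.806 for Sm proteins, with *Snrpb2* counted among them. They are 0.728 for ribosome biogenesis factors and 0.563 for NMD substrates. *Btg2*, *Btg1* and *Noct* lie below the other decay genes.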

How the data were processed

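Whole-kidney mRNA was sequenced, 1 library per group (1 animal or a pool, not given in the sources used here), grouped by the library names in the labels. The kit was stranded (TruSeq), per the labels. The submitters' processing notes name STAR 2.7.3a, HTSeq, DESeq2, edgeR, Cufflinks 2.2.1 and mm10; by the study's methods, STAR aligned the reads, HTSeq counted them per gene and DESeq2 normalized the counts. Strand use in counting is not given in the sources used here. The deposited signal values are read counts per gene that the authors scaled by library. Every value was a whole multiple of the value of 1 read (100% in both libraries, tolerance 0.01), 0.0236 in WT+AKI and 0.0302 in TG+AKI, which equals TMM scaling by edgeR 4.0.16 (factors 1.10 and 0.909) and not scaling by DESeq2 size factors (1.14 and 0.879), so whole reads were recovered. A value of 10 stands for 424.0 and 331.2 reads.

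Ratios were computed without a pseudocount, for genes that reached 10 in 1 library or both. Called means past 1.5-fold or 2-fold, and no p-value for the groups was computed. Intervals are Clopper-Pearson intervals on the 2 libraries' reads at a level of 95%, and shares have exact conditional odds ratios. Members and lists were chosen with earlier results of these data known. Named genes were taken by a rule (highest and lowest ratios per class, highest level per kilobase, paralogs, genes under the filter), and others are marked; 1 gene that the rule selects enters the counts and medians but is not reported here. Transcript length, overlap and shared 100-base words come from GENCODE M21. The procedures were tested on simulated data. Alternatives were other scalings (equal totals, median ratio, DESeq2 1.42.0 size factors), pseudocounts of 1 and 10, no filter, a filter of 50, an added exact binomial test on reads with Benjamini-Hochberg adjustment, removal of genes sharing sequence and, added after the data were seen, a correction for GC content and length. Python 3.11.15, scipy 1.17.1, pandas 2.3.3 and R 4.3.3 were used.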

Additional observations from a re-analysis of the deposited data

How the results depend on the processing

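No paired analysis was possible because each group has 1 library. No named gene past 1.5-fold changed direction, but scaling factors of 0.826 to 1.01 and pseudocounts could not have made one do so. Of 47 named decay genes, 16 changed direction with equal totals, 12 with a median ratio of 1 and 1 with DESeq2 size factors. With the correction for GC content and length, 6 of 38 changed direction or came to exactly 1. Scaling to the same total gave 7 decay genes at least 1.5-fold lower (adding *Xrn2*, *Upf3b*, *Lsm3* and *Exosc1*) and 1 at least 2-fold lower (*Exosc9*), and 854 and 2688 of all genes at least 1.5-fold and 401 and 1186 at least 2-fold higher and lower. Median log2 ratios then became -0.27 for all decay genes, -0.24 for CCR4-NOT, -0.23 for other deadenylases, -0.40 for decapping, -0.33 for Lsm, -0.41 for the exosome, -0.14 for *Pnpt1*, -0.27 for NMD, -0.14 for Argonaute and TNRC6, -0.19 for AU-rich and U-rich element binding proteins and -0.28 for other decay genes. With a median ratio of 1 they became, in the same order without the exosome, whose median stayed within counting error, -0.14, -0.11, -0.10, -0.27, -0.20, -0.013, -0.14, -0.011, -0.057 and -0.15, and 1 decay gene was at least 2-fold lower. These follow from the shift of every gene by 1 factor. DESeq2 size factors gave 2 decay genes at least 1.5-fold higher (adding *Dis3l*).

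A pseudocount of 1 left 2 decay genes lower (without *Lsm8*), and one of 10 left 0 higher (without *Dis3l2*) and 1 lower (*Exosc9*) at 1.5-fold, and 372 and 408 of all genes higher and lower at 2-fold. Without a filter 6 decay genes were lower (adding *Exosc6*, *Exosc8* and *Lsm2*), and of all genes 3498 and 4383 were higher and lower at 1.5-fold and 1821 and 2489 at 2-fold. With a filter of 50, which kept 15 decay genes, 0 were higher and 0 lower, of all genes 883 and 579 passed 1.5-fold and 384 and 302 passed 2-fold, and the median was -0.43 for decapping and 0.23 for Argonaute and TNRC6. Correction for GC content and length, added after the data were seen, gave 1 decay gene at least 2-fold lower and 2 at 1.5-fold (without *Lsm8*). The exact binomial test, whose adjusted p was under 0.05 for 33 of the 61 decay genes (54.1%) and for 80.4% of all genes, removed no call, and leaving out genes that share sequence changed nothing, since *Exosc6* and *Lsm7* were already under the filter. Of 53 named genes, 48 moved by more than counting error with equal totals, 34 with a median ratio of 1, 12 with a pseudocount of 10 and 0 with DESeq2 size factors. Of 44 paralog shares, 41 moved with the median transcript length and 40 with plain reads, for instance *Cnot7* from 48.8% to 74.6% in TG+AKI.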

Other observations

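Shorter transcripts lay lower among the decay genes. Of the 30 genes with the shorter longest transcript, 18 were below a ratio of 1 and 3 of them at least 1.5-fold lower (*Exosc9*, *Lsm6* and *Lsm8*), with a median ratio of 0.977. Of the 31 longer ones, 10 were below 1 and 0 at least 1.5-fold lower, with a median ratio of 1.05. Among all 10294 genes compared, of any length, 5020 were below 1 and 14.9% were at least 1.5-fold lower. Across the 61 genes the log2 ratio and the transcript length had a Pearson r of 0.245 and a Spearman rho of 0.321, against 0.011 and -0.028 across 9977 of all genes compared; these are descriptions across genes of the same 2 libraries. Over 10 bins of transcript length, the median ratio of all genes ran from 0.982 to 1.05. With GC content, r was 0.038 in the decay genes and -0.056 in all genes.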
